A study of Mus musculus with 12 samples.

Results

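The genes described here are 10 genes of monocytes and macrophages: Csf1r, Cd14, Ccr2, Lgals3, Mefv, Igsf6, Lyz2, Fcgr3, Mpeg1 and Bst1. They were chosen by symbol, through the RefSeq accession that each probe carries, and make up 10 of the 20284 named genes and 10 of the 13712 genes tested on single-colour Agilent arrays. All 10 passed the filter, which kept genes flagged well above background by the scanner software on 2 or more of the 12 arrays; 9 were so flagged on 11 or 12 arrays and Bst1 on 3. Bst1 passed that filter through diseased arrays alone, so its disease differences had to be large and its values and calls are given as a description that supports nothing. Values are log2 signals relative to the 75th percentile of the same array, so 0 is that percentile and a difference of 1 is 2-fold.

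The RNA came from granulocyte-macrophage progenitors (GMPs) and from LSK cells, a marrow fraction without lineage markers but with Sca-1 and c-Kit, in which stem and multipotent progenitor cells are found. The cells had grown in recipient mice from C57BL/6 fetal liver cells of Tet2KD/KDEzh2-/- (double mutant), Ezh2-/-, Tet2KD/KD or wild-type genotype. In each cell type there was 1 array of double mutant cells with a myelodysplastic/myeloproliferative neoplasm (MDS/MPN), 1 of double mutant cells with refractory anaemia with excess blasts (RAEB), and 1 each of double mutant, Ezh2-null, Tet2 knockdown and wild-type cells whose labels name no disease. Both diseased conditions thus carry both mutations. No group was repeated, the number of mice behind an array is not given in the sources used here, and the SE of each fit measures how far conditions or genotypes differed, not the spread between mice. In sorted bulk cells, fewer cells of a type and less RNA per cell cannot be told apart.

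Blood monocytes arise from bone marrow progenitors through the GMP stage, and macrophages are their tissue counterparts. The growth factor CSF1 acts on the lineage through its receptor Csf1r, and the transcription factors PU.1, C/EBP alpha and IRF8 switch on its genes. Tet2 oxidises methylated cytosine, Ezh2 is the methyltransferase of Polycomb complex PRC2, and loss of either is found in human myeloid neoplasms.

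Across the arrays the 75th percentile of the raw signal was 189 and 169 on the diseased GMP arrays, against 195 to 245 on the other GMP arrays, and 369 and 389 on the 2 diseased LSK arrays, against 215 to 275 on the other LSK arrays. The diseased GMP arrays shared 1 slide, the diseased LSK arrays another, and the 8 arrays without disease shared one more, so disease and slide cannot be told apart. In 4 of 4 matched pairs the Tet2 probe read lower in Tet2KD/KD cells (difference -1.92, SE 0.27); the Ezh2 probe does not check its genotype, since the labels do not say which exons were removed. The defining GMP genes were bright on all GMP arrays, and the summed signal of 9 GMP markers was 5957 to 6539 on diseased GMP arrays, 4249 to 5483 on other GMP arrays, 1256 to 1594 on diseased LSK arrays and 575 to 736 on other LSK arrays. Kit and Cd34 were well above background on every array. Both were lowest on the RAEB GMP array, at 2.67 and 6.43. On the other GMP arrays Kit read 3.56 to 3.73 and Cd34 7.04 to 7.73. The diseased arrays of the 2 cell types also differed in sex-linked genes: Xist read -5.56 and -5.59 (background) and the Y-linked Eif2s3y 1.51 and 0.82 on diseased GMP arrays, whereas Xist read 1.35 and 1.63 and Eif2s3y -6.76 and -6.72 (background) on diseased LSK arrays. In both cell types without disease, Eif2s3y was well above background in Ezh2-null and Tet2 knockdown cells and Xist in double mutant and wild-type cells.

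**Figure D1:**
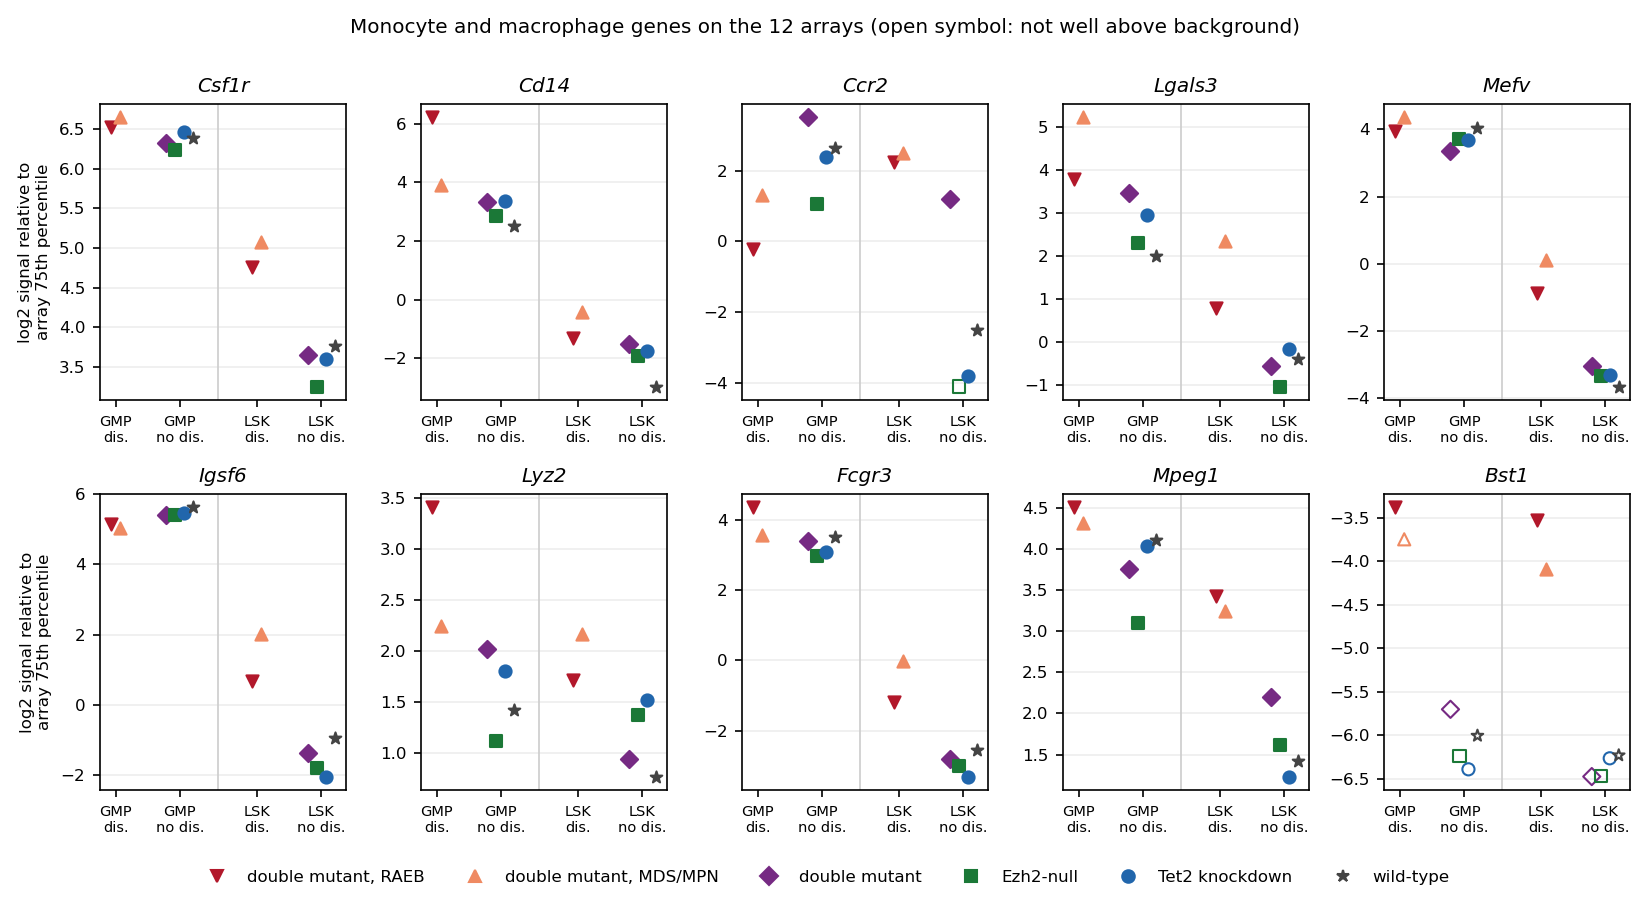
Log2 signal of each gene relative to the array's 75th percentile (y axis) on the 12 arrays, by cell type and disease (x axis; dis., disease); each symbol is 1 array and open symbols were not well above background. On diseased LSK arrays every gene lies above the 4 LSK arrays without disease, where no Bst1 value is above background, and Csf1r, Cd14, Mefv, Igsf6 and Fcgr3 are higher on all 6 GMP arrays than on all 6 LSK arrays.

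In GMPs, 7 of the 10 were higher than in LSK cells at an adjusted p under 0.05, from Mpeg1 at 1.78 to Mefv at 6.21, where 25.7% of all genes were higher, 18.9% lower and 44.5% either. Of the 10, 8 were higher in diseased than in other LSK cells, where 4.65% of all genes were (4.92% lower, 9.58% either), and 4 were higher in diseased than in other GMPs, where 13.4% of all genes were (9.49% lower, 22.9% either). Bst1 is among both, so 7 and 3 of the other 9 were higher. Values below are given for MDS/MPN and RAEB in that order on diseased arrays, and for double mutant, Ezh2-null, Tet2 knockdown and wild-type in that order on the others.

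Among the receptors, Csf1r encodes the tyrosine kinase receptor of the growth factor CSF1. It read 6.64 and 6.52 in diseased GMPs, against 6.33, 6.23, 6.47 and 6.38 in GMPs without disease. In diseased LSK cells it read 5.08 and 4.76, against 3.65, 3.26, 3.60 and 3.77 in LSK cells without disease. All GMP arrays lay above all LSK arrays, and the diseased LSK arrays lay between the groups without overlap. Csf1r was higher in GMPs than in LSK cells by 2.41 (SE 0.22, adjusted p = 0.000116) and higher in diseased than in other LSK cells by 1.35 (SE 0.16, adjusted p = 0.00237). In GMPs the difference of 0.23 (SE 0.16) did not pass (adjusted p = 0.322). Its 3 probes disagree: the difference between diseased and other LSK cells was 2.53 (SE 0.27) for a dimmer probe and -0.09 (SE 0.15) for the remaining one, which also moved by only 0.26 (SE 0.12) between GMPs and LSK cells.

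Fcgr3, the low-affinity receptor for the constant part of IgG on phagocytes, read 3.58 and 4.37 in diseased GMPs, against 3.42, 2.98, 3.10 and 3.52 in the other GMPs. It read -0.01 and -1.19 in diseased LSK cells, against -2.82, -3.00, -3.31 and -2.55 in the other LSK cells. The groups did not overlap. GMPs exceeded LSK cells by 5.64 (SE 0.36, adjusted p = 2.55e-05); antibodies to this receptor are commonly part of the GMP gate, which the labels do not describe, so this difference is given as a description. Diseased LSK cells exceeded the others by 2.32 (SE 0.34, adjusted p = 0.00525), which ended without the MDS/MPN LSK array (1.72, adjusted p = 0.0522, range over alternatives 0.00105 to 0.428). The GMP disease difference was 0.72 (SE 0.34, adjusted p = 0.154).

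Igsf6, an immunoglobulin-like surface protein of myeloid cells, read 5.05 and 5.16 in diseased GMPs, against 5.40, 5.41, 5.48 and 5.63 in the other GMPs. In LSK cells it read 2.03 and 0.67 with disease, against -1.38, -1.82, -2.05 and -0.94 without. The diseased LSK arrays were above the other LSK arrays and below all GMP arrays. Igsf6 was higher in GMPs than in LSK cells by 5.93 (SE 0.59, adjusted p = 0.000186) and higher in diseased than in other LSK cells by 2.90 (SE 0.36, adjusted p = 0.00252). In diseased GMPs it lay below every other GMP array, the only gene of the 10 to do so, with a difference of -0.37 (SE 0.36, adjusted p = 0.484).

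Cd14 is the co-receptor with which monocytes sense bacterial lipopolysaccharide. It read 3.92 and 6.21 in diseased GMPs, against 3.31, 2.85, 3.37 and 2.50 in the other GMPs. It read -0.42 and -1.31 in diseased LSK cells, against -1.50, -1.92, -1.75 and -2.96 in the other LSK cells. The RAEB GMP array stood highest of all 12. GMPs exceeded LSK cells by 5.34 (SE 0.38, adjusted p = 4.07e-05), and diseased GMPs exceeded the others by 2.06 (SE 0.59, adjusted p = 0.0319). Without the RAEB GMP array that difference was 0.91. In LSK cells the disease difference of 1.17 (SE 0.59) did not pass (adjusted p = 0.225).

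Ccr2, the chemokine receptor that lets monocytes leave the bone marrow in mice, read 1.31 and -0.22 in diseased GMPs, against 3.50, 1.07, 2.39 and 2.64 in the other GMPs. It read 2.50 and 2.24 in diseased LSK cells, against 1.19, -4.11, -3.80 and -2.52 in the other LSK cells, where the Ezh2-null array was not well above background. The double mutant LSK array without disease lay above the other LSK arrays without disease and nearer to the diseased ones. GMPs and LSK cells differed by 2.53 (SE 1.19, adjusted p = 0.119); on the 8 arrays without disease alone it was 4.71 and passed, as it did without either RAEB array (3.53, adjusted p = 0.0301, range over alternatives 0.000999 to 0.267). Diseased LSK cells exceeded the others by 4.68 (SE 1.26, adjusted p = 0.0439), a call that held in 3 of the 12 fits that left out 1 array (adjusted p from 0.00501 to 0.211) and whose size was 1.18 against the double mutant array alone. In GMPs the difference was -1.86 (SE 1.26, adjusted p = 0.308).

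Bst1, or CD157, an ectoenzyme of myeloid and stromal cells, was well above background on 3 arrays: both diseased LSK arrays and the RAEB GMP array. It read -3.75 and -3.38 in diseased GMPs, against -5.70, -6.24, -6.39 and -6.00 in the other GMPs. It read -4.09 and -3.53 in diseased LSK cells, against -6.47, -6.46, -6.26 and -6.23 in the other LSK cells. No array without disease was well above background. Both disease differences are therefore bounds: at least 1.47-fold higher in diseased GMPs, where 1 of 2 arrays measured it (fitted difference 2.52, adjusted p = 0.000682), and at least 1.27-fold higher in diseased LSK cells (fitted difference 2.55, adjusted p = 0.000611). With another background correction (normexp) the LSK difference was 0.11 and did not pass. Its second probe was well above background on no array. GMPs and LSK cells differed by 0.26 (SE 0.14, adjusted p = 0.157).

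Among the effectors, Mefv encodes pyrin, the sensor of the pyrin inflammasome. It read 4.36 and 3.95 in diseased GMPs, against 3.35, 3.71, 3.69 and 4.04 in the other GMPs. It read 0.12 and -0.88 in diseased LSK cells, against -3.06, -3.36, -3.32 and -3.67 in the other LSK cells. LSK cells without disease lay far below the rest. It was higher in GMPs by 6.21 (SE 0.46, adjusted p = 4.7e-05) and higher in diseased LSK cells by 2.97 (SE 0.28, adjusted p = 0.000914); the GMP disease difference was 0.46 (SE 0.28, adjusted p = 0.269). A second, dimmer probe gave 1.22 (SE 0.29) for disease in LSK cells. That probe was not well above background on any LSK array without disease, so this is a difference against background.

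Lgals3 encodes galectin-3, a carbohydrate-binding protein of macrophages. It read 5.22 and 3.78 in diseased GMPs, against 3.47, 2.30, 2.94 and 2.00 in the other GMPs. It read 2.35 and 0.78 in diseased LSK cells, against -0.57, -1.04, -0.17 and -0.41 in the other LSK cells. In both cell types the MDS/MPN array was the highest. Diseased exceeded other cells by 1.82 in GMPs (SE 0.54, adjusted p = 0.0360) and by 2.12 in LSK cells (SE 0.54, adjusted p = 0.0366), and GMPs exceeded LSK cells by 3.13 (SE 0.20, adjusted p = 2.77e-05). Neither passed without the MDS/MPN array of its cell type, with 1.33 left in LSK cells and an adjusted p of 0.227 in GMPs (range over alternatives 0.0199 to 0.694). The GMP call also ended without the wild-type (1.60), Ezh2-null (1.70) or Tet2 knockdown (1.91) GMP array, without the double mutant LSK array (1.82) and with quantile normalization (1.58), and held in 7 of the 12 fits that left out 1 array. The LSK call also ended without the wild-type (2.16), Ezh2-null (1.95) or double mutant (2.11) LSK array or the Tet2 knockdown GMP array.

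Mpeg1, perforin-2, which forms pores in engulfed bacteria, read 4.32 and 4.50 in diseased GMPs, against 3.75, 3.09, 4.03 and 4.11 in the other GMPs. It read 3.25 and 3.42 in diseased LSK cells, against 2.20, 1.61, 1.23 and 1.42 in the other LSK cells. By this brighter probe the LSK groups did not overlap. Mpeg1 was higher in diseased LSK cells by 1.72 (SE 0.31, adjusted p = 0.0105) and in GMPs by 1.78 (SE 0.27, adjusted p = 0.00148). Its GMP disease difference was 0.66 (SE 0.31, adjusted p = 0.144). A second, dimmer probe read -1.35 and -1.55 in diseased LSK cells, against -1.42, -2.81, -3.08 and -2.55 in the others, so by that probe the groups overlapped. Its LSK disease difference was 1.01 (SE 0.38). The LSK call ended without the MDS/MPN array (1.81) or the RAEB array (1.63).

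Lyz2, lysozyme, which cleaves bacterial cell walls, read 2.24 and 3.41 in diseased GMPs, against 2.02, 1.12, 1.81 and 1.42 in the other GMPs. It read 2.16 and 1.72 in diseased LSK cells, against 0.93, 1.37, 1.51 and 0.76 in the other LSK cells. Cell types overlapped. Diseased GMPs exceeded the others by 1.23 (SE 0.36, adjusted p = 0.0322), and by 0.65 without the RAEB array; the LSK difference was 0.80 (SE 0.36, adjusted p = 0.175) and the GMP to LSK difference 0.59 (SE 0.25, adjusted p = 0.0927).

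**Figure D2:**
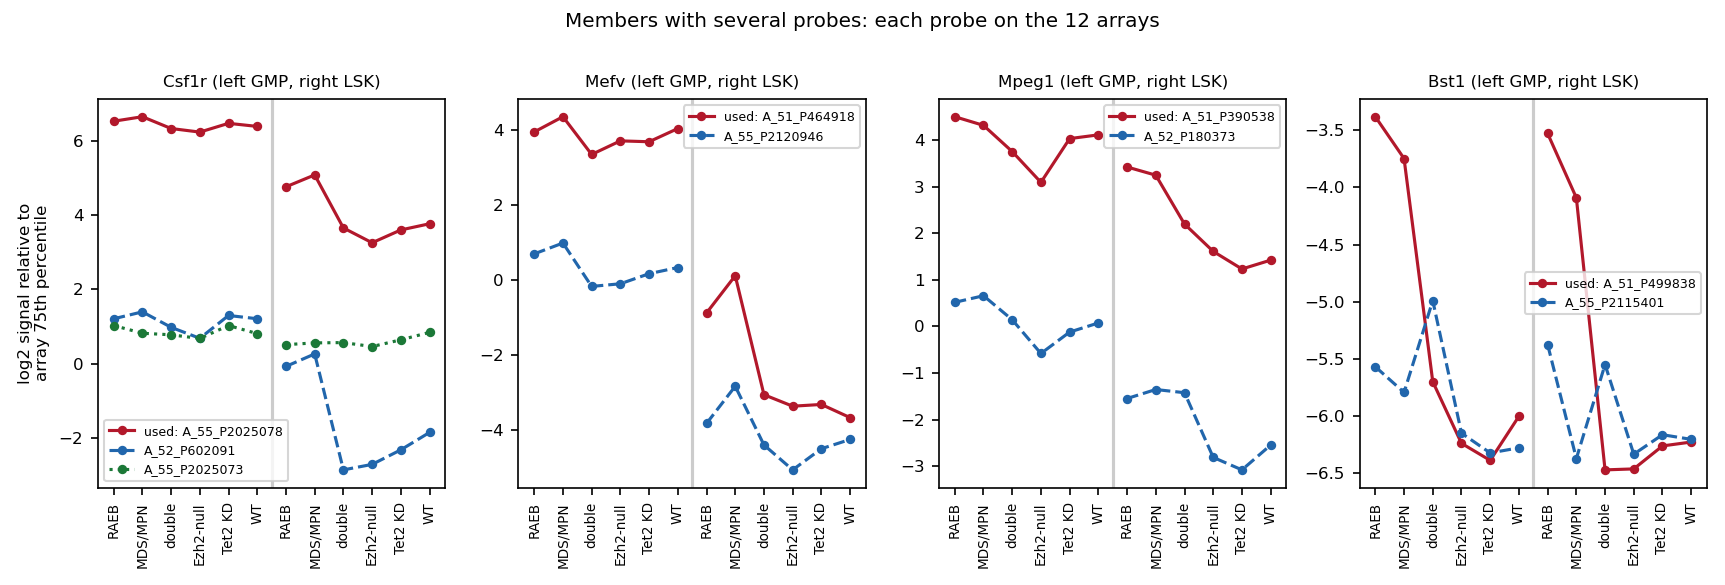
Log2 signal relative to the array's 75th percentile (y axis) of each probe of the 4 genes with several probes, on the 12 arrays (x axis; GMP left, LSK right; lines join arrays of 1 cell type and do not mark an order). A Csf1r probe stays between 0.46 and 1.03 on all arrays while the other probes are higher in GMPs, and the second Bst1 probe does not follow the first.

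Including Bst1, whose position against arrays at background the filter fixed, the 10 genes were all higher on both diseased LSK arrays than on each of the 4 other LSK arrays, where 27% of all genes were (18.3% were lower). These positions are those of the brightest probe of each gene. The second Mpeg1 probe, the second Bst1 probe and the flattest Csf1r probe overlapped between the LSK groups, and the remaining probes did not. The median disease difference of the 10 genes in LSK cells was 2.22, or 2.12 over the 9 without Bst1, against 0.09 over all genes tested. In GMPs, 7 with Bst1 were higher on both diseased arrays than on all the others, where 28.9% of all genes were, and 1, Igsf6, was lower, where 14.8% were; the median was 0.69, or 0.66 without Bst1, against 0.15 over all genes. The calls of Cd14, Lgals3 and Lyz2 in diseased GMPs also ended without the wild-type GMP array (1.89, 1.60 and 1.18) and without the Ezh2-null one (2.00, 1.70 and 1.08). Over all 12 arrays 5 of the 10 did not overlap between GMPs and LSK cells, where 14.6% of all genes lay higher and 11% lower in that way, and the median difference was 2.83 against 0.16.

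The difference between the disease effects was tested directly. It was lower in GMPs for 4 genes, where 5.94% of all genes were (6.93% higher, 12.9% either): Ccr2 by -6.54 (SE 1.78, adjusted p = 0.0388), Igsf6 by -3.27 (SE 0.51, adjusted p = 0.00804), Mefv by -2.52 (SE 0.40, adjusted p = 0.00838) and Csf1r by -1.12 (SE 0.23, adjusted p = 0.0157). Fcgr3 (-1.60, SE 0.49, adjusted p = 0.0548) missed the threshold but passed in 6 of 21 alternatives (range of adjusted p 0.0173 to 0.663), among them quantile normalization (-1.93), the array median (-1.90) and without the RAEB LSK array (-2.20). Bst1 differed by -0.03 (SE 0.31), Lgals3 by -0.29 (SE 0.77), Lyz2 by 0.44 (SE 0.50) and Cd14 by 0.89 (SE 0.84), none past the threshold. The Ccr2 call held in 11 of 21 alternatives. Csf1r (-0.96) did not pass without the MDS/MPN LSK array. These values are from the brightest probe of each gene. The second Mefv probe, at background on LSK arrays without disease, gave -0.44 (SE 0.42). The other Csf1r probes gave -2.27 (SE 0.39) and 0.19 (SE 0.21). Immediate-early genes moved with the same contrast: of 19 tested, 7 were higher and 0 lower in this difference (median 2.59, against 0.05 over all genes), with 1 higher and 0 lower in diseased GMPs (median 1.12) and 0 higher and 3 lower in diseased LSK cells (median -1.62). Their part in the differences was not tested, and the disease effect by cell type, the slides and the sex-linked genes cannot be told apart.

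**Figure D3:**
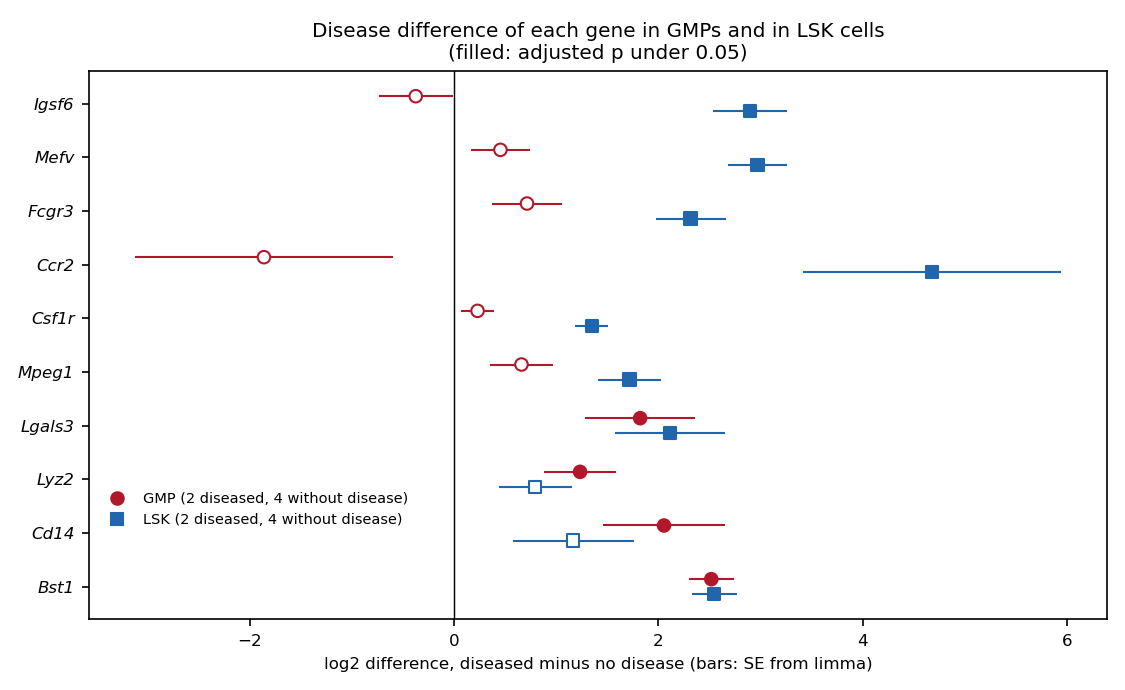
Log2 difference between diseased and other cells (x axis; bars, SE from limma) for each gene (y axis) in GMPs (circles) and LSK cells (squares), 2 diseased arrays against 4 without disease each; filled symbols have an adjusted p under 0.05. Igsf6, Mefv, Ccr2 and Csf1r differ most between the cell types relative to their SE.

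Single diseased arrays were also set against the double mutant array without disease. These counts set an array at background to the higher of its own level and its lowest level well above background, a rule chosen after seeing the data; with measured levels Bst1 was also past 2-fold in the RAEB arrays and in the MDS/MPN LSK array. In the MDS/MPN LSK array 9 were at least 2-fold above the double mutant LSK array without disease, where 3.9% of all genes were (4.76% by measured levels; 6.03% lower), from Mpeg1 (1.05) and Cd14 (1.07) to Igsf6 (3.41). Bst1 was at least 1.12-fold higher. These counts use the brightest probe of each gene. The second Mpeg1 probe read -1.35 on the MDS/MPN and -1.55 on the RAEB LSK array, against -1.42 on the double mutant LSK array. In the RAEB LSK array 7 were, where 3.42% of all genes were (4.14% by measured levels; 6.06% lower); Cd14, Lyz2 and Bst1 (at least 1.65-fold) were not. In GMPs the MDS/MPN array exceeded the double mutant array at least 2-fold for Lgals3 (1.76) and Mefv (1.01), where 4.24% of all genes were (4.7% by measured levels), and the RAEB array for Cd14 (2.90) and Lyz2 (1.39), where 7.78% were (8.25%). Bst1 was at least 1.60-fold higher on the RAEB GMP array. Ccr2 was lower by at least 2-fold on both, at -2.20 for MDS/MPN and -3.73 for RAEB, where 3.68% and 7.96% of all genes were lower (4.91% and 9.17% by measured levels). Against wild-type cells, 9 were at least 2-fold higher in the MDS/MPN LSK array (4.54% of all genes; by measured levels 5.67%, and 6.26% lower) and 7 in the RAEB LSK array (4.86%; by measured levels 5.83%, and 7.1% lower), where Csf1r, Lyz2 and Bst1 were not; Bst1 was at least 1.01-fold higher with MDS/MPN. In GMPs against wild-type, MDS/MPN showed 2 higher, Cd14 (1.42) and Lgals3 (3.22), where 6.45% of all genes were higher (6.86% by measured levels), and RAEB 3, Cd14 (3.71), Lgals3 (1.77) and Lyz2 (1.99), where 8.79% were (9.25%); Bst1 was at least 1.74-fold higher with RAEB. Ccr2 was lower on both, at -1.33 (5.27% of all genes lower; 6.31% by measured levels) and -2.86 (8%; 9.15%). Each is a difference between 2 arrays with no replicate check.

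In the fit of all 12 arrays with condition as a term, 1 of the 10 genes was higher in diseased than in other double mutant cells, Bst1 at 2.40 (SE 0.21, adjusted p = 0.0499, at least 1.39-fold), the only gene of all tested (0.00729%). The arrays it is set against were all at background, 3 of the 4 diseased arrays measured it, and the call ended in 16 of 20 alternatives, so it is a description of Bst1 alone; 0 of the other 9 passed. RAEB and MDS/MPN differed for 0 genes by limma (365 genes at an unadjusted p under 0.05); the largest difference relative to its SE among the 10 was Lgals3, lower in RAEB at -1.50 (SE 0.35, unadjusted p = 0.00287, adjusted p = 0.974). This comparison lies within the slides of each cell type.

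Without disease, no genotype difference of the 10 genes passed the test. Ezh2 loss called 0 of them (limma; 26 genes in all, 0.19%, of which 0.168% higher and 0.0219% lower; 1204 at an unadjusted p under 0.05, none of the 10). Tet2 knockdown called 0 genes in all (788 at an unadjusted p under 0.05). Cd14 was 0.74 higher with the knockdown (SE 0.18, unadjusted p = 0.00542, adjusted p = 0.781) and Lgals3 0.71 higher (SE 0.25, adjusted p = 0.818), each in 4 of 4 matched pairs. The double mutant differed from wild-type in 0 genes (430 at an unadjusted p under 0.05), and no gene differed in its Ezh2 effect (802 at an unadjusted p under 0.05) or its Tet2 effect (266) between cell types. Among single arrays, by measured levels, the double mutant LSK array exceeded the wild-type LSK array at least 2-fold for Cd14 (1.47) and Ccr2 (3.71), where 2.45% of all genes did (2.12% lower). Lgals3 (1.46) did so in GMPs, where 3.7% of all genes did (1.71% lower). The Tet2 knockdown LSK array was higher for Cd14 (1.21; 2.38% of all genes) and lower for Ccr2 (-1.29) and Igsf6 (-1.11; 3.84%), and the Ezh2-null LSK array higher for Cd14 (1.04; 3.26%) and lower for Ccr2 (-1.60; 2.6%), which was not well above background there, so at least 3.02-fold lower. The Ezh2-null GMP array was lower for Ccr2 (-1.57) and Mpeg1 (-1.02), where 1.39% of all genes were lower and 3.2% higher, and the Tet2 knockdown GMP array reached 2-fold for none of the 10 (1.44% of all genes higher, 2.1% lower).

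Promoter sequences of 7 of the genes were taken from RefSeq (GRCm38.p6, 250 bases before to 50 after the start). Bst1 had no entry, and the promoters of Csf1r and Cd14 were left out before matching. Shown are the 3 with the largest GMP to LSK differences. Their pairwise r lay between 0.90 and 0.91 over the 12 arrays after removing each cell type's mean. This is given as a description, since diseased arrays share slides. In diseased GMPs Igsf6 lay below and Fcgr3 above every other GMP array, so within GMPs the 3 did not all move together. They lie at chr16:3718075-3718374 (Mefv), chr7:121074481-121074780 (Igsf6) and chr1:171059354-171059653 (Fcgr3), all on the minus strand and written 5′ to 3′ on the gene's strand. Capitals mark matches to GAGGAA or its reverse TTCCTC, a PU.1 core, and to TTNNGCAA or its reverse, a C/EBP half-site pair.
Mefv: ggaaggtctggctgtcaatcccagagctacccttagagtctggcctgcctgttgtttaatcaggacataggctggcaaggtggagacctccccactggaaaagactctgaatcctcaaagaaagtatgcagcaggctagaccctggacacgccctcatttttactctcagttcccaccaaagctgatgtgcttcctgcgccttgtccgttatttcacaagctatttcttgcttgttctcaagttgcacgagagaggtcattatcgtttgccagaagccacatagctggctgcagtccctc
Igsf6: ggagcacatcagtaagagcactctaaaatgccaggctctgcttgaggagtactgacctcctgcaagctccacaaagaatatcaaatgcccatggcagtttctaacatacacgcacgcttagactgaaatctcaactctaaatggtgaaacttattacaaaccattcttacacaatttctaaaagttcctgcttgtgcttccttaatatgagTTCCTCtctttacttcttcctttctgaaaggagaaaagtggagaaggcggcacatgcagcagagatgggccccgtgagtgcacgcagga
Fcgr3: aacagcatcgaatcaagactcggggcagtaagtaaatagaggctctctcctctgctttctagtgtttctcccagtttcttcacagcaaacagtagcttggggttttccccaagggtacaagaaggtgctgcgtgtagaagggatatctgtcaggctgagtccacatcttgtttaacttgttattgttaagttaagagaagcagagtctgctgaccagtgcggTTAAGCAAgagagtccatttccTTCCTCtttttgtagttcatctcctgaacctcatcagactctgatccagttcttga
On both strands, the PU.1 letters were found in 2 of the 7 promoters, Igsf6 and Fcgr3, against 28.3% of 27025 promoters, and the C/EBP letters in 1 of 7, Fcgr3, against 10.8%. A match is a description of letters and not a site, and its absence says only that these letters are not in the window.

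Genes of related pathways were described from lists that leave out the 10. For reading their counts, 25.7% of all genes were higher and 18.9% lower in GMPs than in LSK cells, 4.65% and 4.92% in diseased than in other LSK cells, and 13.4% and 9.49% in diseased than in other GMPs. Of 14 genes of CSF1 and GM-CSF signalling, 7 were higher and 1 lower in GMPs, 5 were higher and 1 lower in diseased LSK cells (median 0.17, against 0.09 over all genes), and 4 were higher and 2 lower in diseased GMPs. Csf2rb, the shared receptor chain of GM-CSF, IL-3 and IL-5, was higher by 1.49 (SE 0.22, adjusted p = 0.00536) in diseased LSK cells. Of 9 genes of the Fc receptor system, 3 were higher in diseased LSK cells and 6 in diseased GMPs; Fcer1g, the signalling chain of Fc receptors, was higher by 1.45 (SE 0.22, adjusted p = 0.00587) in LSK cells and 0.88 (SE 0.22, adjusted p = 0.0201) in GMPs. Of 16 monocyte transcription factors tested, 5 were higher and 2 lower in diseased GMPs, and 4 were higher and 2 lower in diseased LSK cells, among the higher ones Cebpa, which encodes C/EBP alpha (higher by 1.31, SE 0.14, adjusted p = 0.00149), and Irf8 (higher by 1.52, SE 0.25, adjusted p = 0.0078).

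Of 8 monocyte chemokine and receptor genes tested, 1 was higher in diseased LSK cells (Ccl6 at 1.67, SE 0.28, adjusted p = 0.00804) and 3 were higher and 1 lower in diseased GMPs, including Ccl2, the ligand of Ccr2, at 3.13 (SE 0.77, adjusted p = 0.0178). Of 18 Toll-like receptor partners of CD14 tested, 5 were higher and 1 lower in diseased LSK cells, and 8 were higher in diseased GMPs, including Tlr2 at 1.28 (SE 0.27, adjusted p = 0.00959). Of 13 pyrin inflammasome genes tested, 1 was higher and 1 lower in diseased LSK cells, and 2 and 1 in diseased GMPs. Of 30 other monocyte surface and secreted genes tested, 9 were higher and 0 lower in diseased LSK cells (median 0.57), and 7 were higher and 1 lower in diseased GMPs (median 0.53, against 0.15 over all genes). Of 18 lysosomal and phagocyte killing genes tested, 13 were higher and 2 lower in GMPs than in LSK cells, 1 was higher and 1 lower in diseased LSK cells (median 0.22), and 9 were higher and 1 lower in diseased GMPs (median 0.67). Lamp1, a lysosomal membrane protein, was higher by 0.61 (SE 0.14, adjusted p = 0.0126) in diseased GMPs.

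Some markers of other cells moved with disease. In diseased LSK cells, 7 of 14 other GMP markers were higher, with Elane at 2.36 (SE 0.41, adjusted p = 0.00947) and Prtn3 at 1.75 (SE 0.27, adjusted p = 0.00577), while 0 of 18 stem and multipotent progenitor markers were higher and 2 were lower (median -0.34). Those 2, named after their values were seen, were Mecom and Hlf. In diseased GMPs, 4 of the 18 stem and multipotent progenitor markers were higher and 0 lower (median 0.37, against 0.15 over all genes). There 1 of the 14 other GMP markers was higher and 0 lower. The summed signal of 6 neutrophil markers was 178 and 699 on diseased GMP arrays against 28.1 to 50.3 on the other GMP arrays, and 342 (MDS/MPN) and 15.2 (RAEB) on diseased LSK arrays against 10.5 to 90.4 on the others. Of 15 neutrophil genes tested, 5 were higher in diseased GMPs and 1 in diseased LSK cells, with 0 lower in either. Mast cell, basophil and eosinophil markers summed to 1302 (MDS/MPN) and 384 (RAEB) on diseased GMP arrays against 48.7 to 82.7, and to 40.1 and 10.9 on diseased LSK arrays against 3.26 to 8.57. Of 18 genes of that list tested, 3 were higher in diseased GMPs and 2 in diseased LSK cells, with 0 lower. Prg2 read 10.1 and 8.51 on diseased GMP arrays and made up most of both sums there, whereas Cpa3 (3.19 and 2.67) lay below every other GMP array. Epx (6.93 and 3.00) lay above all GMP arrays without disease. Mcpt8 (5.20 and 2.05) and Fcer1a (3.31 and -0.15) lay above them with MDS/MPN and below them with RAEB. Summed erythroid and megakaryocyte markers read 10.9 (MDS/MPN) and 28.4 (RAEB) on diseased GMP arrays against 1.62 to 2.88 on the other GMP arrays, with 7 of 17 genes of that list higher and 1 lower, and 15.6 and 16.3 on diseased LSK arrays, within the range of the other LSK arrays (highest 27.1), with 0 higher and 0 lower. For 7 mature macrophage markers the sum was 7.38 and 4.03 on diseased GMP arrays against 2.41 to 3.26, and 1.12 and 2.01 on diseased LSK arrays against 0.793 to 1.05, with C1qa, C1qc and Cd5l well above background on no GMP array. Of 12 genes of that list tested, 1 was higher and 0 lower in diseased LSK cells, where 4.65% of all genes were higher, and 0 were higher or lower in diseased GMPs. Adgre1, or F4/80, was at least 3.38-fold higher in diseased LSK cells. C1qb and Spic, well above background on all LSK arrays, went both ways. On the MDS/MPN LSK array (-3.11 and -1.75) they lay below every LSK array without disease, and on the RAEB LSK array (-2.18 and -0.83) above every one. The part of these cells in the differences above was not tested.

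**Figure D4:**
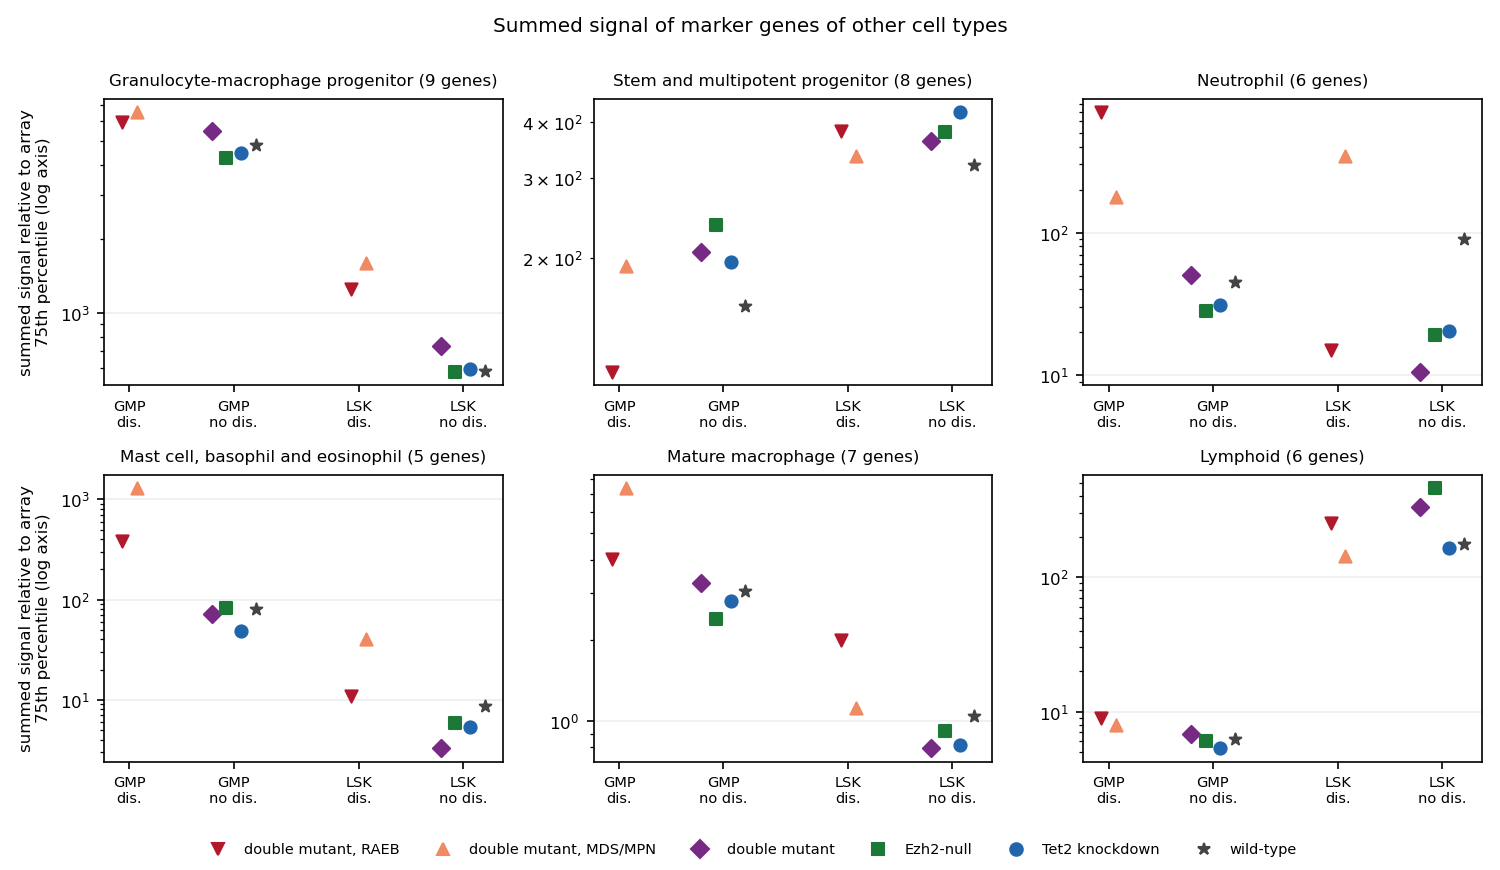
Summed signal relative to the array's 75th percentile (y axis, log scale) of marker genes of 6 cell types on the 12 arrays (x axis, by cell type and disease). GMP markers run from 5957 to 6539 on diseased GMP arrays and from 1256 to 1594 on diseased LSK arrays, and the MDS/MPN LSK array is the highest LSK array for neutrophil markers.

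The genes whose pattern over the 12 arrays was most like the mean of the 10, by Pearson r and without a test, were Cd300lb (0.995), Mpo (0.994), Cebpa, Aoah and Nrg1 (each 0.992) and Cdk16 (0.992). After removing each cell type's mean they were Cd300lb (0.982), Mpo (0.978), Rgs10 (0.966), Aoah (0.965), Prtn3 (0.961) and Cdk16 (0.961), and those most like Csf1r were Cd300lb (0.983) and Hp (0.982). Mpo encodes the granule enzyme myeloperoxidase. The 12 points share slides by disease, and Cd300lb and Nrg1 were well above background on 8 of the 12 arrays. Among the 10 themselves r ran from 0.03, for Ccr2 and Lyz2, to 0.95, for Csf1r and Mefv, and was 0.93 for Cd14 and Lyz2.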

How the data were processed

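Total RNA of 12 sorted bone marrow samples was labelled with Cy3 and hybridised to single-colour Agilent arrays, per the labels' protocols. Per the file headers, the deposited processed signal is a background-corrected intensity from Feature Extraction 10.7.1.1, and the deposited median spot and background signals are intensities as well; the deposited spot flags were used as yes or no marks (unit other). At all 62976 spots of each array the authors' value table equals this processed intensity. The genome build of the array design differs from that of the gene table (GRCm38.p6), which was used for names only; 26762 of 55681 gene probes matched 1 symbol, 0 several and 28919 none.

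Here each array's log2 signal had its log2 75th percentile over gene spots subtracted, outlier spots were left out, spots of 1 probe were averaged and the brightest probe stood for a gene (15 probes for the 10 genes). Genes well above background on at least 2 of 12 arrays entered linear models in limma (version 3.58.1, R version 4.3.3; lmFit and eBayes, two-sided, Benjamini-Hochberg over all genes, threshold 0.05): GMP against LSK with condition as a block; disease in each cell type from 4 group means, genotypes standing in for replicates; genotypes on the 8 arrays without disease; and disease terms over all 12 arrays. The fits were tested on simulated data. Where a group lay at background, a fold is a bound against the higher of the probe's own signal and the array's lowest signal well above background. Other genes were named by a rule: up to 4 of each list with the smallest p between GMPs and LSK cells, and those most like the members' mean or Csf1r. Mecom, Hlf, C1qb, Cpa3, Mcpt8 and Fcer1a were named outside that rule, after their values were seen. Normexp used the median spot signal, since the files hold no mean signal. The members and lists were chosen with earlier results of these data known. Alternatives are given at the end; the fits of disease in LSK cells and of the difference between cell types on double mutant arrays alone, of single probes, and single-array differences with bounds at background, were chosen after seeing the data. Precision is limited by the 12 arrays, 1 per group.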

Additional observations from a re-analysis of the deposited data

Results flagged for a closer look

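For 4 genes the difference between diseased and other cells was itself different in GMPs and in LSK cells, by the limma test of that difference. For Ccr2 it was -6.54, with -1.86 in GMPs and 4.68 in LSK cells. For Igsf6 it was -3.27, with -0.37 in GMPs and 2.90 in LSK cells. For Mefv it was -2.52, with 0.46 in GMPs and 2.97 in LSK cells, and for Csf1r it was -1.12, with 0.23 in GMPs and 1.35 in LSK cells. Other probes did not all show it: the second Mefv probe gave -0.44 (SE 0.42), and the other Csf1r probes gave -2.27 (SE 0.39) and 0.19 (SE 0.21). The diseased arrays of each cell type lie on a slide of their own, so these differences and the slides cannot be told apart. They also differ between the cell types in sex-linked genes: Xist read -5.56 and -5.59 and Eif2s3y 1.51 and 0.82 on diseased GMP arrays, whereas Xist read 1.35 and 1.63 and Eif2s3y -6.76 and -6.72 on diseased LSK arrays, so these too cannot be told apart from the differences. Of 19 immediate-early genes tested, 7 were higher and 0 lower in the same difference (median 2.59), and their part was not tested. In 40 sets of arrays checked, no array's gap to its nearest neighbour exceeded Dixon's critical value.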

How the results depend on the processing

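Of 2129 recomputed values of the 10 genes, 2041 kept their side of the threshold, 74 no longer passed, 13 newly passed and 1 turned: the disease effect of Bst1 in GMPs minus LSK cells was 0.52 with normexp (adjusted p = 0.0478, range over its alternatives 0.0478 to 0.998). A further 115 signs changed among values that passed in neither setting. The 7 genes higher in GMPs than in LSK cells passed in 23 of 23 alternatives. The counts for disease in each cell type that follow take in Bst1, whose calls are a description only. In both cell types Bst1 passed in every fit that left out 1 array. In diseased GMPs each count of 1 was Bst1, so none of the other genes passed there. The count of genes higher in diseased LSK cells was 4 to 8 when 1 array was left out, with 4 without the MDS/MPN array, and 0 on the 6 double mutant arrays alone, an alternative chosen after seeing the data that tests fewer arrays. In diseased GMPs the count was 1 with quantile normalization, 1 to 4 when 1 array was left out (1 without the wild-type or the Ezh2-null GMP array, 2 without the RAEB GMP array) and 0 on the 6 double mutant arrays alone. The count of genes whose disease effect differed was 2 to 4 when 1 array was left out, with 2 without the MDS/MPN LSK array, and 0 on the 6 double mutant arrays alone. Bst1, the 1 gene higher in diseased than in other double mutants, gave a count of 0 with normexp, the array median, the mean of probes, no filter, trend and robust moderation and double mutant arrays alone, and 0 to 1 when 1 array was left out; with the stricter filter of 6 arrays it was not tested, which fixes that count at 0. The count for RAEB against MDS/MPN was 0 to 1 when 1 array was left out, with 1 (Cd14) without the RAEB LSK array. Over all genes, 3523 were higher and 2585 lower in GMPs; quantile normalization gave 2677 and 3105, and the array median 3840 and 2109. In diseased GMPs, 1833 of all genes were higher and 1301 lower, and 1397 and 1501 with quantile normalization. Without the wild-type GMP array these were 1261 and 991, and without the Ezh2-null one 1117 and 929. In diseased LSK cells, 638 of all genes were higher and 675 lower. There the array median gave 1924 and 333, quantile normalization 832 and 597, and no filter 1235 and 4216 of 20284 genes. Leaving out either diseased LSK array also left fewer of all genes called in diseased LSK cells. The cause of these changes was not tested. The 6 double mutant arrays alone hold 1 array without disease per cell type, so a count of 0 there says little about the 10 genes. No paired analysis was possible because the labels give no replicate numbers. The fit of GMPs against LSK cells already has condition as a block. Without it 7 genes also passed (3787 higher and 2549 lower over all genes). The block matches conditions and not mice, and the diseased arrays of the cell types differed in sex-linked genes. Differences against arrays at background are limited by signal over background.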
